A study of Homo sapiens with 6 samples.

Results

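The genes described are 10 members of the IL-6 family axis: the cytokines IL6, IL11 and LIF, the receptor chains IL6R, IL11RA, LIFR, OSMR and IL6ST, and the kinases JAK1 and JAK2. They were taken by symbol, with earlier results of these data known, and all 10 were found among the 58676 genes of the table. RNA sequencing was used to ask how loss of BCL9 changes gene expression in DCIS.COM, an established human breast line of the basal type used as a model of ductal carcinoma in situ. NS control cells carried a non-silencing shRNA in the lentiviral PLKO.1 vector, and BCL9 KD cells carried the same vector with an shRNA against BCL9, a transcriptional co-activator best known from Wnt signaling. The methods give a single BCL9 shRNA sequence, so the knockdown cells stand for that shRNA. Each group had 3 samples, with a flask of cells per sample, grown in DMEM/F12 with horse serum and antibiotic and with no added cytokine named in the labels. The p-values below therefore measure the spread between flasks of the same cells.

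Cytokines of the IL-6 family act, with the exception of IL-31, through receptor complexes that contain gp130, the signaling chain encoded by IL6ST. IL-6 and IL-11 first bind their own chains, IL6R and IL11RA, while LIF engages LIFR together with gp130 and oncostatin M engages OSMR or LIFR together with gp130. JAK kinases held on the receptor tails phosphorylate the receptors and then STAT3, and in the mammary gland LIF acting through STAT3 is known for its part in involution after lactation.

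Expression is given as FPKM, the reads on a gene scaled for gene length and library depth, and 3 values of a group stand in the order of its replicates 1, 2 and 3. The samples held between 15222452 and 26949026 reads on genes. BCL9 itself (ENSG00000116128) was at 6.25, 6.24 and 5.34 FPKM in the NS control samples against 2.86, 2.78 and 2.59 FPKM in the BCL9 KD samples, so the groups did not overlap (log2 fold change −0.99, SE 0.0933, limma adjusted p = 0.00773). That call was lost without NS control replicate 2 (limma adjusted p = 0.0636), without BCL9 KD replicate 2 (limma adjusted p = 0.0600) and without BCL9 KD replicate 3 (limma adjusted p = 0.0700). Over the 13745 genes with a mean of at least 0.5 FPKM, changes were tested by limma on log2(FPKM + 0.5) with a threshold of 0.05 on the adjusted p. The added 0.5 FPKM pulls the log2 difference between any pair of samples towards 0, most of all for weakly expressed genes. Of the genes tested, 807 passed (5.87%, or 10.2% with limma's voom on recovered read counts). Fewer passed without limma's variance trend (332) and with a block for the replicate number (0). Of the 807 genes, 50.4% were higher in BCL9 KD cells. That share of the calls was 63.6% after a correction for the GC content of the transcripts, 46.7% after median-of-ratios scaling and 43.4% after quantile normalization. The count of genes passing depended on single samples: it was 12 without NS control replicate 2, 13 without BCL9 KD replicate 2, 5 without BCL9 KD replicate 3 and 1736 without NS control replicate 3. The 6 basal epithelial markers summed to between 1196 and 1372 FPKM in NS control and between 1289 and 1344 FPKM in BCL9 KD samples. The 5 luminal and general epithelial markers summed to between 578 and 689 FPKM and between 531 and 561 FPKM, and none of these 11 markers passed the test. Markers of other cell types were low but not all near 0: PTPRC, which marks leukocytes, had at most 1 read in any sample and CD14 had 11 to 49, while of the fibroblast collagen genes COL1A2 had at most 2 reads and COL1A1 had 81 to 176.

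Of the 10 members, 8 were expressed highly enough to be tested and 1 passed, LIF, which was higher in BCL9 KD cells. That is 1 of 8, where 5.87% of all genes tested passed and 2.96% passed as higher and 2.91% as lower. The median log2 fold change of the 8 members was 0.08, and that of all genes tested was 0.04. An unadjusted limma p under 0.05 was found for 2 members, LIF and OSMR, and for 27.5% of all genes tested. The same 2 members were those whose groups did not overlap, LIF higher and OSMR lower, and 34.2% of all genes tested did not overlap (17.8% higher and 16.4% lower). The remaining 7 tested members had limma adjusted p values between 0.181 and 0.885.

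**Figure D1:**
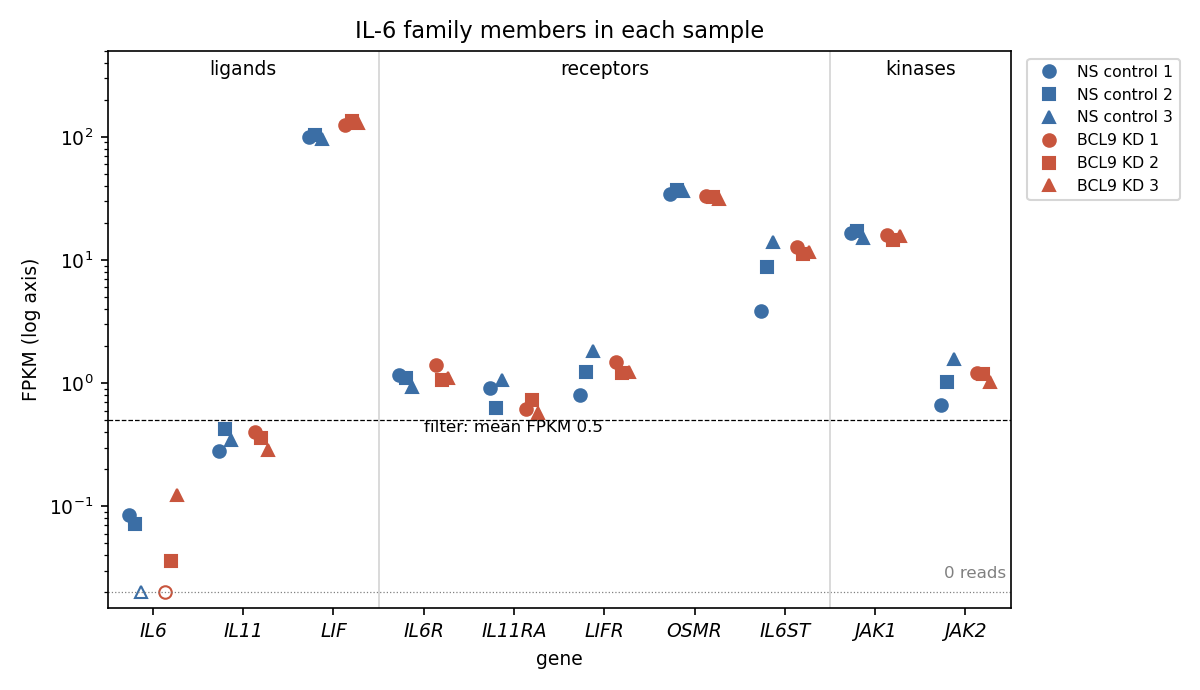
FPKM (log axis) of each member in each of the 6 samples, with NS control in blue, BCL9 KD in red and a symbol for each replicate. Open symbols at the bottom are samples with 0 reads, and the dashed line is the mean of 0.5 FPKM needed for the test. LIF lies highest, between 96.0 and 134 FPKM, and IL6 lowest. Of the tested members, IL6ST, LIFR and JAK2 are spread most widely among the NS control samples.

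LIF (ENSG00000128342) lies on the minus strand of chromosome 22 of hg38, from 30240447 to 30246851, and encodes leukemia inhibitory factor. Its expression was 98.9, 103 and 96.0 FPKM in the NS control samples against 125, 134 and 129.6 FPKM in the BCL9 KD samples. Every BCL9 KD sample was above every NS control sample, and the samples within a group lay close together. The means were 99.1 ± 3.29 FPKM (SD, n = 3) and 129.6 ± 4.61 FPKM (SD, n = 3), a ratio of 1.31. On the log2 scale the difference was 0.39 (SE 0.0647, 95% confidence interval 0.23 to 0.54, limma adjusted p = 0.0291), and the two-sided exact permutation test gave p = 0.1, the smallest that 3 samples against 3 allow. These values rest on at least 5799 reads in every sample, and the mean level of LIF was at the 98.1th percentile of the genes tested. LIF passed in 3 of the 6 fits that each leave out a sample, with log2 fold changes from 0.36 to 0.41. The call was lost without NS control replicate 2 (limma adjusted p = 0.114), without BCL9 KD replicate 2 (limma adjusted p = 0.163) and without BCL9 KD replicate 3 (limma adjusted p = 0.159). With all samples, LIF passed in 10 of 13 alternative settings. It did not pass without the filter on low FPKM (limma adjusted p = 0.0728), without the trend (0.0551) or with the replicate block (0.101). An antisense gene that shares 647 bases with LIF had between 94 and 193 reads, and since the strand setting of the counting is not given in the sources used here, reads of the pair may not have been told apart.

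LIF was almost the whole of the measured ligand expression. Over 11 ligand genes of the family, counting IL6, IL11 and 8 others beside LIF, it made up 97.5%, 97.3% and 96.7% of the summed FPKM in the NS control samples and 97.9%, 98.0% and 98.1% in the BCL9 KD samples. LIF thus dominated the ligand sum in both groups, and the share was higher in every BCL9 KD sample. IL11 (ENSG00000095752, chromosome 19 from 55364389 to 55370463), the ligand of the IL11RA and gp130 complex, was at 0.280, 0.426 and 0.344 FPKM in the NS control samples against 0.402, 0.361 and 0.287 FPKM in the BCL9 KD samples, with overlapping groups. Its means were 0.350 ± 0.0729 FPKM (SD, n = 3) and 0.350 ± 0.0586 FPKM (SD, n = 3), on between 12 and 26 reads per sample.

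IL6 (ENSG00000136244, chromosome 7 from 22725884 to 22732002), which encodes the cytokine that gives the family its name, was at the limit of detection. It had 4, 3 and 0 reads in the NS control samples against 0, 2 and 4 reads in the BCL9 KD samples. The 0 reads allow up to 0.0953 FPKM in NS control replicate 3 and 0.0820 FPKM in BCL9 KD replicate 1, taking 3 reads as the floor, and these limits cover counting error only. No difference in IL6 was detectable at this depth, and no fold change is given. Neither IL6 nor IL11 reached the mean needed for the test.

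Among the receptor chains, OSMR (ENSG00000145623, plus strand of chromosome 5 from 38845858 to 38945596) was the most highly expressed. The oncostatin M receptor gene was at 34.1, 37.3 and 36.5 FPKM in the NS control samples against 32.9, 32.4 and 31.2 FPKM in the BCL9 KD samples. The lowest NS control sample was above the highest BCL9 KD sample. The means were 36.0 ± 1.68 FPKM (SD, n = 3) and 32.2 ± 0.884 FPKM (SD, n = 3), a ratio of 0.895. The log2 difference of −0.16 (SE 0.0663, 95% confidence interval −0.31 to −0.00) did not pass the test, with a limma p of 0.0495 before and 0.181 after adjustment. The two-sided exact permutation p was 0.1, the smallest possible. OSMR shares 7678 bases with RICTOR on the opposite strand, which had between 271 and 814 reads against at least 3506 for OSMR.

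IL6ST (ENSG00000134352, minus strand of chromosome 5 from 55935095 to 55994993), which encodes gp130, had the widest spread of the tested members among NS control samples. Its expression was 3.85, 8.70 and 14.0 FPKM in the NS control samples against 12.6, 11.2 and 11.7 FPKM in the BCL9 KD samples. The highest NS control sample was 3.65 times the lowest, whereas the BCL9 KD samples differed by a factor of 1.12 at most, and the NS control samples lay on both sides of all BCL9 KD samples. The means were 8.87 ± 5.10 FPKM (SD, n = 3) and 11.9 ± 0.716 FPKM (SD, n = 3). The log2 fold change of 0.56 (SE 0.392, 95% confidence interval −0.36 to 1.49, limma adjusted p = 0.380) was the largest of the members but did not pass, with an SE that was also the largest. It was 0.09 without NS control replicate 1 (limma adjusted p = 0.780) and 0.96 without NS control replicate 3 (limma adjusted p = 0.0771). Each value rests on at least 812 reads.

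LIFR (ENSG00000113594, minus strand of chromosome 5 from 38474963 to 38608354) encodes the chain that binds LIF and lies 237503 bases from OSMR, on the other strand. It was at 0.802, 1.23 and 1.81 FPKM in the NS control samples against 1.48, 1.20 and 1.24 FPKM in the BCL9 KD samples. The BCL9 KD values fell inside the range of the NS control values. The log2 fold change was 0.06 (95% confidence interval −0.46 to 0.57, limma adjusted p = 0.885), and its sign turned without NS control replicate 1 (−0.15), without BCL9 KD replicate 1 (−0.01) and after the GC correction (−0.17).

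The chains that bind IL-6 and IL-11 were both expressed at a low level. IL6R (ENSG00000160712, chromosome 1 from 154405193 to 154469450) was at 1.17, 1.10 and 0.937 FPKM in the NS control samples against 1.39, 1.06 and 1.11 FPKM in the BCL9 KD samples. Its groups overlapped, and the log2 fold change was 0.10 (95% confidence interval −0.23 to 0.43 at limma adjusted p = 0.658). IL11RA (ENSG00000137070, chromosome 9 from 34650702 to 34661892) was at 0.917, 0.625 and 1.06 FPKM in the NS control samples against 0.623, 0.730 and 0.568 FPKM in the BCL9 KD samples. The log2 fold change of IL11RA was −0.25 (95% confidence interval −0.67 to 0.17, limma adjusted p = 0.384), and NS control replicate 2 lay among the BCL9 KD samples. IL11RA had between 38 and 89 reads per sample. Its span shares 334 bases with GALT and 6412 bases with RP11-195F19.29, both on the same strand. Reads in these stretches cannot be assigned to either gene with certainty, and RP11-195F19.29 had 0 reads. How such reads were counted is not given in the sources used here, so the low level of IL11RA carries this limit.

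**Figure D2:**
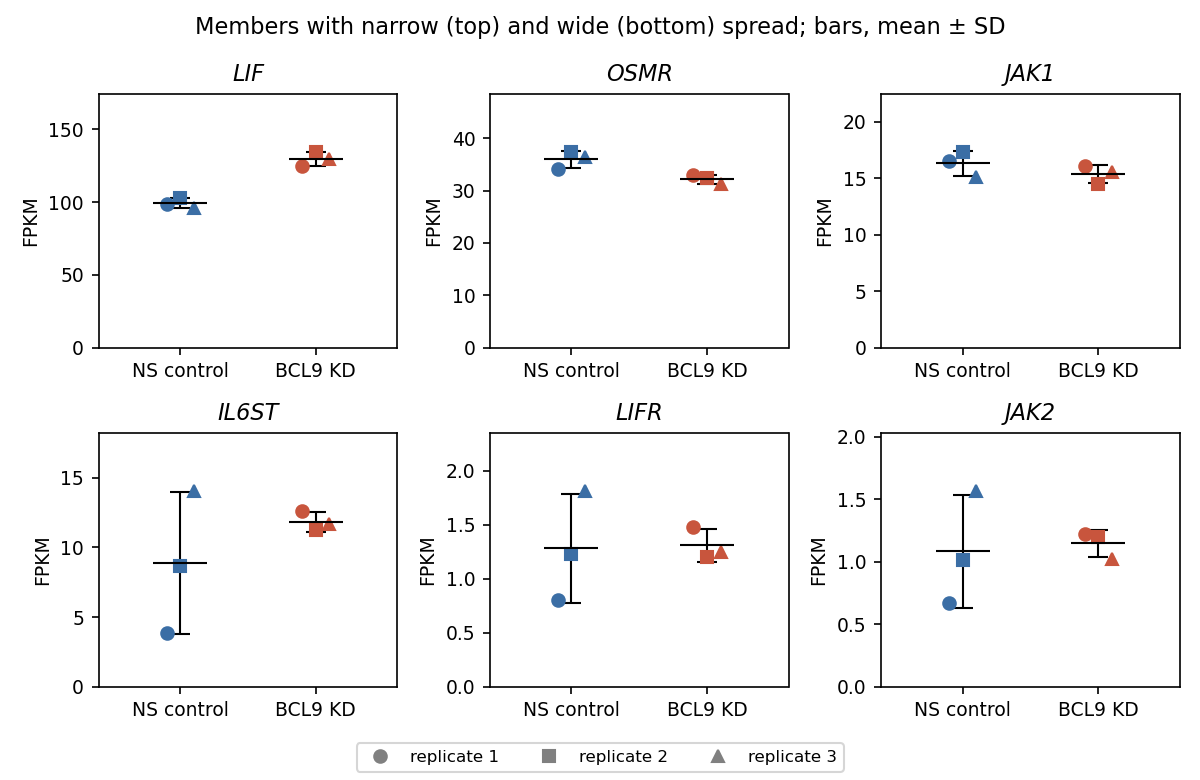
FPKM of LIF, OSMR and JAK1 (top) and of IL6ST, LIFR and JAK2 (bottom) in the 3 NS control (blue) and 3 BCL9 KD (red) samples, with horizontal lines at the means, error bars for the SD and every axis starting at 0. In the top row the samples of a group lie close together, and in the bottom row NS control replicate 1 is lowest and NS control replicate 3 highest for each gene.

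JAK1 (ENSG00000162434, chromosome 1 from 64833229 to 64966504), the kinase through which gp130 chiefly signals, was at 16.6, 17.3 and 15.1 FPKM in the NS control samples against 16.1, 14.5 and 15.6 FPKM in the BCL9 KD samples. Its groups overlapped, with a log2 fold change of −0.08 (95% confidence interval −0.27 to 0.10, limma adjusted p = 0.513). JAK2 (ENSG00000096968, chromosome 9 from 4985033 to 5128183), which also binds gp130, was at 0.669, 1.02 and 1.56 FPKM in the NS control samples against 1.22, 1.20 and 1.02 FPKM in the BCL9 KD samples. The log2 fold change of JAK2 was 0.09 (95% confidence interval −0.42 to 0.61, limma adjusted p = 0.800), and it was −0.10 without NS control replicate 1 and −0.12 after the GC correction. Per length, JAK1 was 24.8, 17.1 and 9.68 times as high as JAK2 in the NS control samples, against 13.2, 12.1 and 15.2 times in the BCL9 KD samples. JAK1 thus exceeded JAK2 in all 6 samples, and JAK2 had between 88 and 187 reads per sample.

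The order of the levels per length was LIF, OSMR, JAK1 and IL6ST in both groups, and each of these lay above the next without overlap between the samples of a group. In NS control cells LIFR, JAK2, IL6R and IL11RA followed, and each overlapped the next. In BCL9 KD cells LIFR, IL6R and JAK2 overlapped in the same way and lay above IL11RA. IL11 came next and IL6 last in both groups. The 2 chains that oncostatin M can engage beside gp130 were thus far apart: the OSMR level was 42.5, 30.3 and 20.1 times the LIFR level in the NS control samples, against 22.3, 27.0 and 25.1 times in the BCL9 KD samples. The OSMR level was also 8.86, 4.29 and 2.60 times that of IL6ST in the NS control samples, and between 2.60 and 2.89 times in the BCL9 KD samples. Most of the variation in these ratios lay within NS control.

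IL6ST, LIFR and JAK2 had transcripts with a low GC content of 36.6%, 38.1% and 38.3%, within the range of 26.8% to 39.3% that held the 1358 genes lowest in GC content. These 1358 genes had a median log2 deviation from the mean of the 6 samples of −0.54 in NS control replicate 1, −0.08 in NS control replicate 2 and 0.18 in NS control replicate 3. In the BCL9 KD samples it was between 0.11 and 0.20. The NS control replicates thus stood in the same order for these genes at large as for the 3 members. After the GC correction, the range of log2 values over the NS control samples went from 0.83 to 0.32 for LIFR, from 0.82 to 0.33 for JAK2 and from 1.74 to 1.15 for IL6ST. The IL6ST fold change was then 0.31 on the log2 scale (limma adjusted p = 0.458). LIF, with a GC content of 57.6%, had a log2 fold change of 0.50 after the correction (limma adjusted p = 0.0172), while its own NS control range went from 0.10 to 0.27. The part of GC content in the spread between the flasks beyond these values was not tested.

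**Figure D3:**
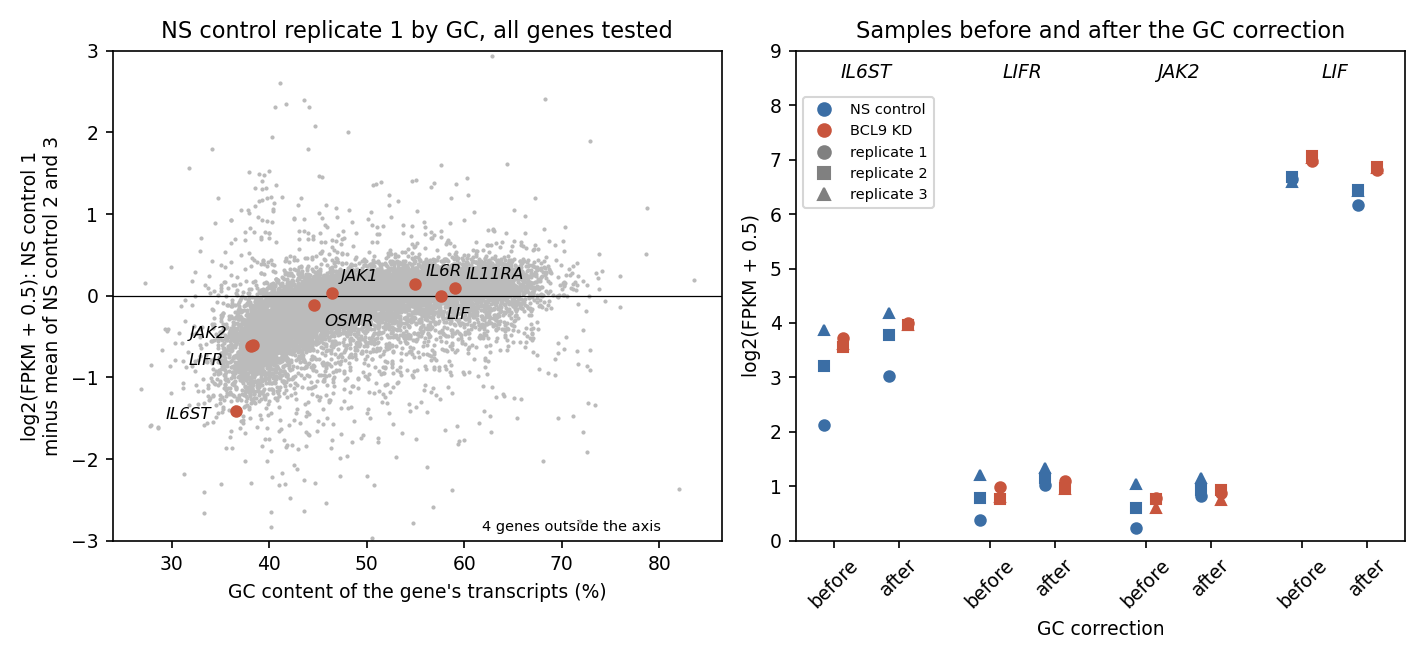
Left, the log2(FPKM + 0.5) of NS control replicate 1 minus the mean of NS control replicates 2 and 3 against transcript GC content (%), for all genes tested (grey) and the tested members (red), with 4 genes outside the axis. Right, log2(FPKM + 0.5) of IL6ST, LIFR, JAK2 and LIF in each sample before and after the GC correction, in blue for NS control and red for BCL9 KD. IL6ST, LIFR and JAK2 lie below 0 at the left, where the median of the genes of low GC content was also lower in NS control replicate 1, and the NS control range of IL6ST goes from 1.74 to 1.15 after the correction.

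Around the members, 38 further genes of the pathway were examined, of which 25 were tested and 3 passed: SAA1 and CEBPD, which rose, and STAT3, which fell. That is 3 of 25, where 5.87% of all genes tested passed, and the median log2 fold change of the 25 genes was 0.03. The groups did not overlap for 10 of the 25 genes, where 34.2% of all genes tested did not overlap. Of the 8 other ligand genes, 3 were tested and none passed. OSM, which encodes the ligand of the abundantly expressed OSMR, had 0 reads in all 6 samples, as did EBI3 and IL31. CTF1, which encodes cardiotrophin, was at 0.397, 0.327 and 0.395 FPKM in the NS control samples against 0.680, 0.847 and 0.997 FPKM in the BCL9 KD samples, without overlap. These values rest on 10 to 15 and on 20 to 38 reads. Its NS control mean of 0.373 FPKM was under the filter, so it was tested only through its BCL9 KD mean of 0.842 FPKM. The log2 fold change was 0.61 (limma adjusted p = 0.0745, but 0.0209 among protein-coding genes only), and these p-values do not allow for that way into the test.

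Of the 3 other receptor chains and the 2 other JAKs, 1 each was tested, IL27RA and TYK2, and neither passed. TYK2, the third JAK that binds gp130, was at 14.2, 13.8 and 12.9 FPKM in the NS control samples against 14.8, 13.0 and 14.1 FPKM in the BCL9 KD samples. Its groups overlapped (log2 fold change 0.03, limma adjusted p = 0.801), and its level was close to that of JAK1. ADAM17, which cleaves IL-6 receptors from the cell surface, was at 30.1, 32.2 and 31.0 FPKM in the NS control samples against 32.4, 26.8 and 26.3 FPKM in the BCL9 KD samples (log2 fold change −0.13, limma adjusted p = 0.404). The related protease gene ADAM10 was at 8.43, 14.1 and 16.9 FPKM in the NS control samples against 18.6, 17.8 and 18.7 FPKM in the BCL9 KD samples (log2 fold change 0.52, limma adjusted p = 0.191). Its groups did not overlap, unlike those of IL6ST, and its lowest sample was NS control replicate 1, as for IL6ST. The GC content of ADAM10 was 40.2%, and its groups did not overlap after the GC correction either.

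Of the 9 genes of proximal signaling and feedback, 8 were tested and only STAT3, the transcription factor that the receptor complex phosphorylates, passed. That is 1 of 8, where 5.87% of all genes tested passed. STAT3 was at 39.0, 33.1 and 31.1 FPKM in the NS control samples against 24.5, 22.9 and 22.0 FPKM in the BCL9 KD samples (log2 fold change −0.56, SE 0.0990, limma adjusted p = 0.0325). The feedback inhibitor gene SOCS3, a direct target of STAT3, was at 1.50, 1.74 and 1.37 FPKM in the NS control samples against 1.61, 1.55 and 1.75 FPKM in the BCL9 KD samples, with overlap (log2 fold change 0.07, limma adjusted p = 0.707). The call of STAT3 was lost without NS control replicate 2 (limma adjusted p = 0.130), BCL9 KD replicate 2 (limma adjusted p = 0.156) and BCL9 KD replicate 3 (limma adjusted p = 0.159).

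Among 14 genes that gp130 signaling is known to induce, 10 were tested and 2 passed, both higher in BCL9 KD cells, where 5.87% of all genes tested passed and 2.96% passed as higher. SAA1, which encodes an acute-phase serum amyloid, was at 32.3, 24.2 and 34.9 FPKM in the NS control samples against 51.4, 72.7 and 74.6 FPKM in the BCL9 KD samples. Every BCL9 KD sample was higher, and the mean was 2.17 times that of NS control (log2 fold change 1.10, SE 0.185, limma adjusted p = 0.0291). Reads of SAA1 can be split with its near-identical copy SAA2, which was at 0.771, 0.710 and 1.74 FPKM in the NS control samples against 1.85, 2.23 and 2.38 FPKM in the BCL9 KD samples (log2 fold change 0.81, limma adjusted p = 0.0951). CEBPD, a transcription factor gene of the acute-phase response, was at 14.5, 11.2 and 12.0 FPKM in the NS control samples against 17.0, 17.9 and 18.8 FPKM in the BCL9 KD samples (log2 fold change 0.50, SE 0.105, limma adjusted p = 0.0450). The remaining 8 tested genes had log2 fold changes between −0.31 and 0.41 and limma adjusted p values between 0.0530 and 0.992. TIMP1, at the upper end of that range, was at 81.1, 69.4 and 75.9 FPKM in the NS control samples against 91.0, 109.6 and 100.6 FPKM in the BCL9 KD samples (limma adjusted p = 0.0530, but 0.0163 after the GC correction). PIM1, a kinase gene at the lower end, was at 3.67, 2.76 and 2.67 FPKM in the NS control samples against 2.20, 2.26 and 2.55 FPKM in the BCL9 KD samples, without overlap (log2 fold change −0.31, limma adjusted p = 0.188).

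The SAA1 and CEBPD calls depended on single samples. SAA1 lost its call without NS control replicate 2 (limma adjusted p = 0.107), BCL9 KD replicate 2 (limma adjusted p = 0.141) and BCL9 KD replicate 3 (limma adjusted p = 0.141). CEBPD kept its call only without NS control replicate 1 (limma adjusted p = 0.0191), and its limma adjusted p was between 0.0526 and 0.193 without any other sample. The summed level of 4 endothelial markers was between 1.80 and 2.42 FPKM in NS control and between 3.22 and 4.06 FPKM in BCL9 KD samples, and that of 6 leukocyte markers between 0.460 and 0.661 FPKM and between 0.938 and 1.53 FPKM. Most of the endothelial sum was PECAM1, whereas VWF and CDH5 had at most 5 reads. PECAM1 passed the test (limma adjusted p = 0.0477) and also without NS control replicate 3 (limma adjusted p = 0.0470), but not without NS control replicate 1 (0.0534) or 2 (0.144), nor without BCL9 KD replicate 1 (0.0929), 2 (0.163) or 3 (0.186). Most of the leukocyte sum was CD14, a monocyte marker with 11 to 49 reads, at 0.560, 0.288 and 0.418 FPKM in the NS control samples against 1.38, 0.964 and 0.778 FPKM in the BCL9 KD samples, without overlap (log2 fold change 0.73, limma adjusted p = 0.0811). CD14 reached the filter only through BCL9 KD cells (mean 1.04 FPKM, against 0.422 FPKM in NS control), which this p-value does not allow for. ITGAM had 9 to 19 reads, and PTPRC and CD3E had at most 1. The 6 fibroblast markers summed to between 0.702 and 0.732 FPKM in NS control and between 0.768 and 0.905 FPKM in BCL9 KD samples. The part of these other cell type markers in the results was not tested. In such bulk samples, fewer cells of a type and less RNA per cell cannot be told apart.

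**Figure D4:**
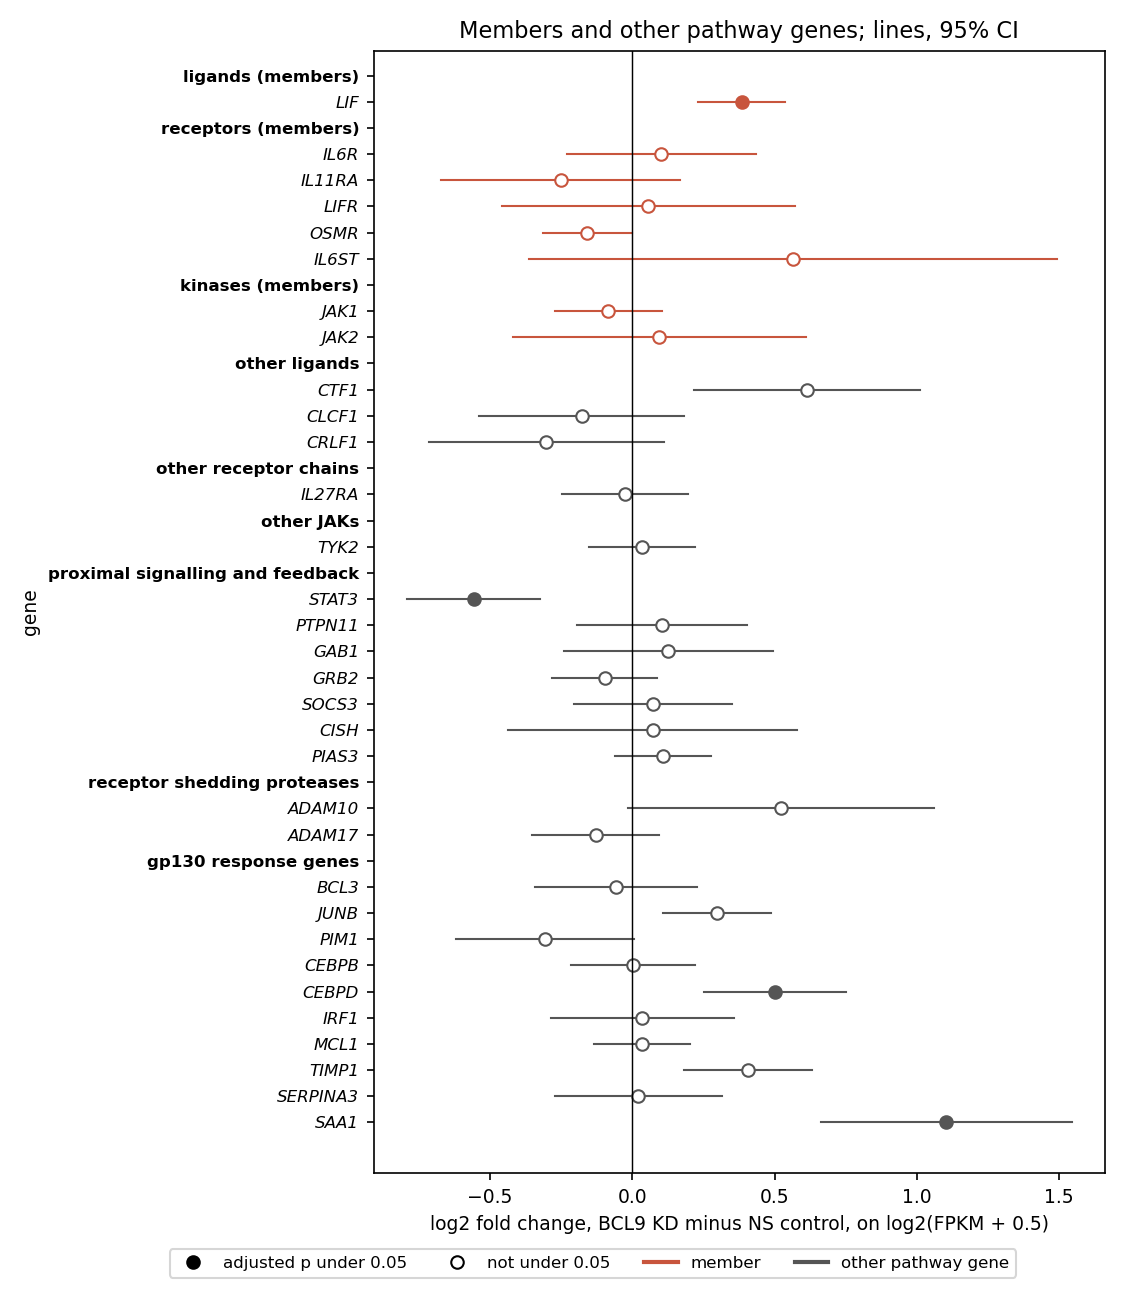
Log2 fold change of each tested member (red) and of other pathway genes (grey), BCL9 KD minus NS control on log2(FPKM + 0.5), with lines for the 95% confidence interval and filled points for a limma adjusted p under 0.05. LIF, STAT3, CEBPD and SAA1 are filled, and the interval of IL6ST, −0.36 to 1.49, is the widest.

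Likeness of expression was described by the Pearson correlation of log2(FPKM + 0.5) over the 6 samples, for the ligand, the receptor chain and the kinase with the highest mean level. These samples include the difference between the groups, so genes that differ between the groups in the same direction correlate with each other. The genes most like LIF were SLC37A2 (r = 0.999), FOXQ1 (r = 0.999) and RLN2 (r = 0.997). OSMR was most like SH3D19 (r = 0.993), UNC5CL (r = 0.991) and MTMR10 (r = 0.989), and JAK1 was most like DVL3 (r = 0.986), AD001527.7 (r = 0.986) and ZBTB2 (r = 0.985). Of the 13745 genes, 243 had r over 0.95 with LIF, 120 with OSMR and 23 with JAK1.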

How the data were processed

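RNA of DCIS.COM cells was sequenced from 3 NS control and 3 BCL9 KD flasks. The processing notes of the submitters name CASAVA, STAR, HTSeq 0.6.1 and hg38, and the authors deposited FPKM, the HTSeq count scaled by gene length and depth. The same table holds gene length in bases, an other unit that the authors deposited. The authors tested differential expression with DESeq2, whereas limma on log2(FPKM + 0.5) was used here because the files hold FPKM. The methods name 2 replicates per condition and the labels 3, and all 3 were used. FPKM times length gave whole reads (tolerance 0.1) for all values, which gave the depth, and limits from reads cover counting error only.

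Fits were run in R 4.3.3 with limma 3.58.1, and summaries in Python 3.11.15 with pandas 2.3.3, numpy 2.4.6, matplotlib 3.10.9 and scipy 1.17.1. Replicates of a group correlated with r between 0.964 and 0.987 and no 2 were identical. The fit was tested on simulated data. P-values were adjusted by Benjamini-Hochberg over all genes tested. The GC correction was a loess curve (span 0.3) of each sample's log2 values against transcript GC content from GRCh37 annotation, known for 98.8% of genes tested. Alternatives added 1 or 0.1 FPKM, took a minimum mean of 1 FPKM or none, or used quantile normalization, median-of-ratios scaling, a robust fit, a fit without the trend, a replicate block, protein-coding genes only, voom on the recovered reads, the GC correction with and without the block, and leaving out each sample. The members and gene lists were chosen with earlier results of these data known. Named were the 10 members, BCL9, pathway genes past the threshold, STAT3, TYK2, OSM and ADAM17, and the 3 genes most like the top ligand, receptor and kinase. SAA2, CTF1, ADAM10, SOCS3, TIMP1, PIM1, JUNB, EBI3, IL31 and the markers named fall outside that rule; their values had been seen when they were chosen. Of the 2 rows for SERPINA3, the one with the higher mean was used. Protein and promoter sequences were not used here, and some genes of the lists are not reported here by name.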

Additional observations from a re-analysis of the deposited data

How the results depend on the processing

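Across 13 alternatives to the test used, the log2 fold change of LIF stayed between 0.30 and 0.50 and passed in 10. It was lost without the filter on low FPKM (limma adjusted p = 0.0728), without the trend (0.0551) and with the replicate block (0.101), where 0 members were called. OSMR passed in none of the 13 alternatives (limma adjusted p from 0.134 to 0.308). LIFR turned to −0.015 with quantile normalization and to −0.17 with the GC correction, with or without the block, and JAK2 turned to −0.12 with the GC correction, with or without the block. LIF, IL6R, IL11RA, OSMR, IL6ST and JAK1 kept their direction in all alternatives run (12 for IL11RA and 13 for each other gene). With a sample left out, the log2 fold change ran from −0.15 to 0.26 for LIFR and from −0.10 to 0.31 for JAK2. The number of members called ran from 0 to 1, of other pathway genes from 0 to 4, and of all genes from 5 (without BCL9 KD replicate 3) to 1736 (without NS control replicate 3).

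Against 3 other pathway genes called, 0 were called without the filter and with the replicate block, and 5 with protein-coding genes only and with the GC correction. The BCL9 call was lost with the replicate block (limma adjusted p = 0.0656). STAT3 was lost without the filter (limma adjusted p = 0.0850), without the trend (0.0548) and with the block (0.0788), SAA1 without the filter (0.0901) and with the block (0.0852), and CEBPD without the filter (0.109), without the trend (0.0682), with the block (0.112) and with median-of-ratios scaling (0.0688). TIMP1 passed with a minimum mean of 1 FPKM (limma adjusted p = 0.0461), quantile normalization (0.0325), protein-coding genes only (0.0331), voom (0.0366), the GC correction alone (0.0163) or under the block (0.0432), and without BCL9 KD replicate 1 (0.0473). CTF1, tested only through its level in BCL9 KD cells, passed without the trend (0.0491) and with protein-coding genes only (0.0209). JUNB passed with the GC correction (0.0210) and without NS control replicate 1 (0.0498). The share of calls that were higher was 75.6% with the GC correction and the block. PECAM1 was lost without the filter, without the trend, after quantile normalization, after median-of-ratios scaling and under the block, alone or with the GC correction (limma adjusted p from 0.0595 to 0.127). The GC content of PECAM1 was not known, so the correction left its own values as they were (log2 fold change 0.61 with and without it). Against 807 genes called in all, 142 were called without the filter, 332 without the trend, 1409 with protein-coding genes only, 1403 with voom, 1545 with the GC correction and 442 with the GC correction and the block. With the replicate block alone limma called 0 genes, and 3235 had an unadjusted p under 0.05. Samples with the same replicate number did not deviate together (r between −0.147 and −0.00287). These are correlations of deviations from group means of 3 samples, so they cannot exclude that the number pairs the samples. Fewer than 100 reads in every sample on IL11, IL11RA and IL6 limit what could be detected for them. JAK2 had 88 reads in NS control replicate 1 and 93 in BCL9 KD replicate 3, and IL6R had 92 in NS control replicate 3. The causes of the other changes were not tested.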
